A study of Homo sapiens with 12 samples.

Results

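The genes described here encode the proteins of the mitochondrial ribosome. They were chosen as all genes whose probes carry a single symbol that begins with MRPL or MRPS and a digit, which gave 80 of the 20046 genes with such a probe. Of the 80 genes, 76 code for proteins, 48 of the large subunit (MRPL symbols) and 28 of the small subunit (MRPS symbols). The other 4 are non-coding: MRPL20-AS1, MRPL23-AS1, MRPL42P5 and MRPS31P5. Both cell lines of the study, MDA-MB-231 and BT-549, are long-established models of human triple-negative breast cancer. Each received 10 µM everolimus, a drug that blocks the kinase mTOR, or only its solvent DMSO, for 48 h. Total RNA of whole cultures was read on 12 Illumina bead arrays, 3 for each of the 4 groups: everolimus-treated MDA-MB-231, DMSO-treated MDA-MB-231, everolimus-treated BT-549 and DMSO-treated BT-549. No engineered allele or second agent is named in the labels. Whether replicates came from separate cultures is not given in the labels, so the spread behind each p-value is that between these arrays and may be technical.

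The mitochondrial ribosome sits inside the organelle and makes the few respiratory chain subunits that mitochondrial DNA encodes. Its RNA comes from the organelle, but all of its proteins are encoded in the nucleus, made in the cytosol and imported. Part of them descend from bacterial ribosomal proteins, and part were added in the mitochondrial lineage. The large subunit holds the peptidyl transferase centre and the exit tunnel, and the small subunit binds the messenger RNA and decodes it.

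The deposited values are log2 signals, normalised between arrays so that every array has the same quantiles. A gene was tested if a probe of it exceeded the background floor of 6.77 on at least 3 of the 12 arrays, and the brightest such probe stood for the gene. This left 11764 genes, among them all 76 protein-coding members and the non-coding MRPL20-AS1 and MRPL42P5. Of the 76, 75 lay above the floor on all 12 arrays, and 49 had 1 probe. MRPL23-AS1 peaked at 6.67 and MRPS31P5 at 6.78, and neither was tested. A gene was called when limma's adjusted p (Benjamini-Hochberg over 11764 genes) was under 0.05. Folds are 2 raised to the log2 difference, ± values are SDs with n = 3, and no signal of one gene is compared with that of another. Arrays of a group correlated at r = 0.927 to 0.995. In each group replicate 1 was the array that departed most from the group mean over all genes. Over the 76 members its deviations reached an SD of 0.317 in everolimus-treated BT-549, so counts are also given without the 4 replicate 1 arrays. Of the receptors that define the tumour class, ESR1 was above the floor on 0 arrays, PGR on 1 and ERBB2 on 12. The mesenchymal marker VIM reached 14.20 in BT-549 and 14.39 in MDA-MB-231, and the leukocyte marker PTPRC was above the floor on 0 arrays. Other markers checked were mixed. Mesenchymal CDH2 reached 12.55 in BT-549 and 6.68 in MDA-MB-231, and FN1 and ZEB1 passed the floor on 3 and 2 arrays. Epithelial EPCAM, KRT8 and KRT18 passed it on 8, 7 and 7 arrays, and CDH1 on 0. Luminal GATA3 and FOXA1 passed it on 8 and 4 arrays, and the leukocyte markers CD14 and CD3E on 11 and 0.

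Under everolimus the members sat lower than in DMSO in both lines. For each array the median over the 76 members was taken, after subtraction of each gene's mean over the 12 arrays. In BT-549 this median was -0.115, -0.248 and -0.315 on the everolimus arrays, against -0.023, 0.110 and 0.227 on the DMSO arrays. In MDA-MB-231 it was 0.052, -0.072 and -0.145 on the everolimus arrays, against 0.210, 0.140 and 0.139 on the DMSO arrays. All 3 everolimus arrays lay below all 3 DMSO arrays in each line. The same median over all 11764 genes stayed between -0.056 and 0.021 on the 12 arrays, and over 67 cytosolic ribosomal protein genes between -0.062 and 0.126. RNA of whole cultures cannot tell fewer cells of a type apart from less of an RNA per cell.

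**Figure D1:**
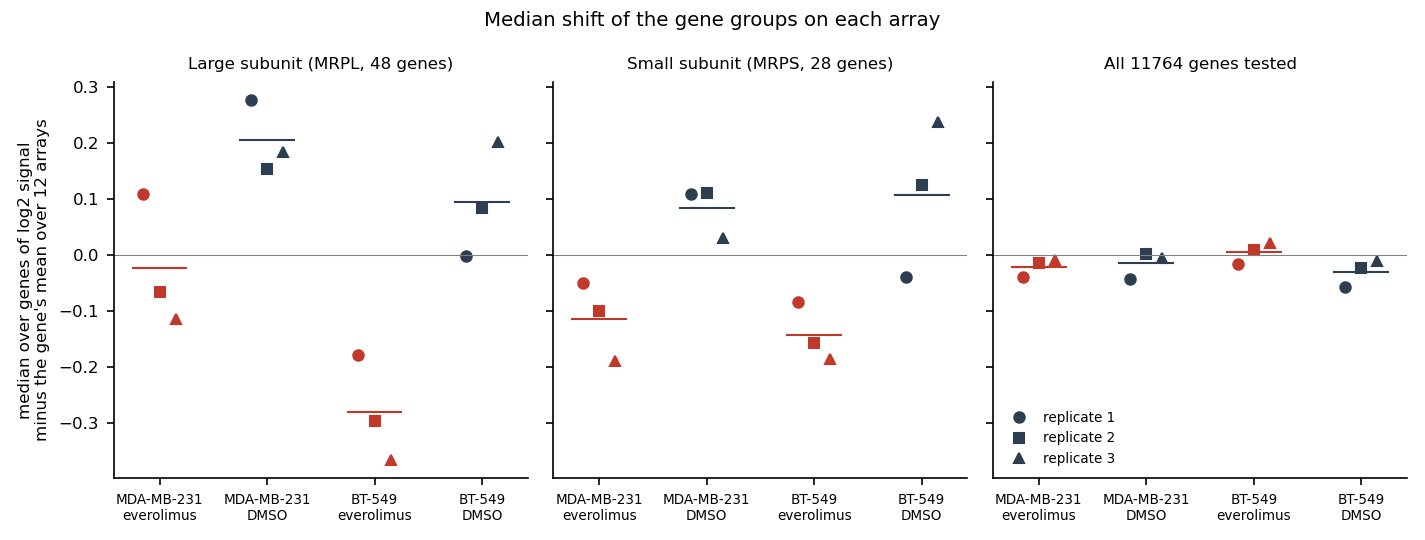
Median over genes of the log2 signal minus the gene's mean over the 12 arrays (vertical axis, log2 units) on each array, for the 48 large subunit genes, the 28 small subunit genes and all 11764 genes tested. Points are arrays (circle, square and triangle for replicates 1, 2 and 3), lines are group means; in both subunits the everolimus arrays of each line lie below that line's DMSO arrays, while the median of all genes stays within -0.056 and 0.021.

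In BT-549 everolimus lowered 24 mitoribosomal protein genes and raised 3 past the test's threshold. The falls were led by MRPL47, MRPL20, MRPS34, MRPS18C and MRPL52, each by more than 1 log2 unit, and the rises were those of MRPL57, MRPL10 and MRPS2. The 24 falls were 31.6% of the 76 members, where 7.23% of all genes tested were called lower. The 3 rises were 3.95%, where 9.54% of all genes were called higher, and calls in either direction covered 16.8% of all genes. With the medians of the arrays made equal, 29 members were called lower and 3 higher, while 1088 of all genes (9.25%) were called lower and 877 (7.45%) higher, against 850 lower and 1122 higher as deposited. The members' log2 fold changes had a median of -0.345, with 65 of 76 below 0, against a median of 0.037 over all genes. In 38 members all 3 everolimus arrays lay below all 3 DMSO arrays (14.1% of all genes did so), and in 4 they lay above (18.5%).

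MRPL47, the counterpart of bacterial ribosomal protein L29, lies near the mouth of the exit tunnel. It gave log2 signals of 8.17, 8.22 and 7.75 on the BT-549 everolimus arrays, against 9.62, 9.79 and 9.99 on the DMSO arrays. The groups were far apart, and the everolimus mean was 3.37-fold lower (log2 fold change -1.75, 95% interval -2.20 to -1.30, limma adjusted p = 0.000927). A second, dimmer probe of MRPL47 gave -0.48, so the size of this fall rests on the probe. MRPL20, the counterpart of L20, a protein of early large subunit assembly in bacteria, read 9.82, 9.19 and 8.77 in everolimus and 10.28, 10.47 and 10.46 in DMSO. The everolimus arrays were spread over 1 log2 unit, yet all of them lay below DMSO (-1.14, interval -1.69 to -0.59, adjusted p = 0.0126), and the second MRPL20 probe gave -1.17. MRPL52, a protein found in mitochondrial ribosomes and not in bacterial ones, read 8.17, 8.63 and 8.41 in everolimus and 9.41, 9.43 and 9.44 in DMSO. Its DMSO arrays were almost equal, and its fall was 2.03-fold (-1.02, interval -1.35 to -0.70, adjusted p = 0.0021). MRPL42, also mitochondria-specific, read 8.27, 8.06 and 7.80 in everolimus and 8.80, 9.11 and 9.18 in DMSO, without overlap (-0.99, interval -1.33 to -0.65, adjusted p = 0.00291), and its second probe gave -0.54.

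The 250 bases before the annotated start are shown for the 4 large subunit genes just described and for the leading rise (MRPL57), as RefSeq gives them for GRCh38.p14, on the gene's strand. They are examples of windows with and without the letters searched, chosen after the values were seen. Capitals mark matches to letters of factors known to bind promoters of nuclear genes for mitochondria: CCGGAAGT (ETS family, including GABP), AANATGGC (YY1) and the NRF1 motif with an open centre, each read on both strands. MRPL47 is chr3:179604639-179604888 on the minus strand, with an ETS match 39 to 32 bases before the start and a YY1 match on the other strand 92 to 85 bases before it. MRPL20 is chr1:1407294-1407543 on the minus strand, with an ETS match at 44 to 37. MRPL52 is chr14:22829637-22829886 on the plus strand, with YY1 matches at 98 to 91 and at 64 to 57. MRPL42 is chr12:93467264-93467513 on the plus strand, with no match. MRPL57 is chr13:21176408-21176657 on the plus strand, with an NRF1 match at 74 to 65.
MRPL47: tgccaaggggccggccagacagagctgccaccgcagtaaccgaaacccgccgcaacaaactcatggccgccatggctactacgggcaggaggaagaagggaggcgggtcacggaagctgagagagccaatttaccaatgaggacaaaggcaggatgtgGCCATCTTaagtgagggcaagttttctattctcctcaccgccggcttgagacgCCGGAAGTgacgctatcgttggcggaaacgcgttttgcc
MRPL20: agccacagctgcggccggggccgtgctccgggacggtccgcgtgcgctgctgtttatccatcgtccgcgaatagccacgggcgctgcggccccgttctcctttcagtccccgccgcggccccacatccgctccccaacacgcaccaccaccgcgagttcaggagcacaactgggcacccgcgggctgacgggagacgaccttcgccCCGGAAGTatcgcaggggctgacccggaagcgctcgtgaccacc
MRPL52: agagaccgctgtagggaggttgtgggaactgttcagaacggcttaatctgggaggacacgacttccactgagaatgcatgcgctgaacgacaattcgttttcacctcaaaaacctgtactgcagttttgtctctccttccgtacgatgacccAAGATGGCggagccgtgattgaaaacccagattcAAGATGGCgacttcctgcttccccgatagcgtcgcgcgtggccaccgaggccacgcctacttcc
MRPL42: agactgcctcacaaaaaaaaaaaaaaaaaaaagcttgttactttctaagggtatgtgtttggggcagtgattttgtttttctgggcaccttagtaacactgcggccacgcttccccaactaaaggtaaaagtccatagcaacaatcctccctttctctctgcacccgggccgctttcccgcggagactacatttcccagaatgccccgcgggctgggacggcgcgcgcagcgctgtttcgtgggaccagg
MRPL57: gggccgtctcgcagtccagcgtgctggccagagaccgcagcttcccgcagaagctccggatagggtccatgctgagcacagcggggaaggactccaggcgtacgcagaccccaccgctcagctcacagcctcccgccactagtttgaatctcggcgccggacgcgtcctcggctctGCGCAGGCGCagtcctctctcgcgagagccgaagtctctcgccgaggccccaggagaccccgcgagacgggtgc

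Promoter windows were given for 68 of the 76 members. In the 300 bases around the start (250 before, 50 after), both strands read, the YY1 letters stood in 36.8% of member windows and in 6.82% of all 27305 promoter windows. Of the 25 member windows with YY1 letters, 5 held them within the 250 bases before the start and 20 only with bases of the 50 after it, beside 1067 and 795 over all windows. Within the 250 bases before the start alone, the YY1 letters stood in 7.35% of member windows and 3.91% of all windows. For ETS the split was 8 and 2 in member windows, beside 995 and 216 over all windows. Before the start alone, the ETS letters stood in 11.8% and 3.64%. The ETS letters stood in 14.7% of member windows and 4.44% of all windows, and the NRF1 motif with an open centre in 11.8% and 6.28%, of which the closed 10-base NRF1 motif is a special case (1.47% and 1.36%). The E-box CACGTG stood in 8.82% and 7.43%. Among the 23 windows of members called lower in BT-549, 10 (43.5%) held the YY1 letters and 6 (26.1%) the ETS letters. Of the 45 windows of the other members, 15 (33.3%) and 4 (8.89%) did. The NRF1 motif with an open centre went the other way, in 2 (8.7%) of the 23 and 6 (13.3%) of the 45. The E-box stood in 3 (13.0%) of the 23 and 3 (6.67%) of the 45. The median GC content was 60.3% in member windows and 58.3% in all windows. A match is a description of these letters and not of binding.

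MRPL3 and MRPL11 stand for the conserved core of the large subunit. MRPL3, the counterpart of L3 beside the peptidyl transferase centre, read 10.40, 10.27 and 9.72 in everolimus-treated BT-549 and 11.05, 11.04 and 11.29 in DMSO. The groups did not overlap (log2 fold change -1.0, adjusted p = 0.0169), though the second MRPL3 probe gave -0.21. MRPL11, part of the stalk base that meets translation factors, read 9.84, 9.48 and 9.29 in everolimus and 10.42, 10.27 and 10.39 in DMSO (-0.82, adjusted p = 0.00975). Its other 2 probes gave -0.35 and -0.10, the last near the floor, with BT-549 means of 6.74 in everolimus and 6.84 in DMSO. MRPL17, at the exit tunnel, read 9.08, 9.43 and 9.61 in everolimus and 9.84, 10.38 and 10.33 in DMSO (-0.81, adjusted p = 0.00929). In both genes every everolimus array was below every DMSO array. MRPL33, a small protein of bacterial descent, read 11.47, 11.60 and 11.06 in everolimus and 11.97, 12.31 and 12.72 in DMSO (-0.96, adjusted p = 0.023), with -0.77 on its other probe. MRPL39, which is mitochondria-specific, read 8.50, 8.94 and 8.47 in everolimus and 9.34, 9.58 and 9.98 in DMSO (-1.0, adjusted p = 0.0352). The remaining large subunit calls were smaller: MRPL22, MRPL50, MRPL43, MRPL41, MRPL46, MRPL19 and MRPL36 fell by 0.64 to 0.34 on the log2 scale. MRPL43 is uncertain, because its 3 probes gave -0.57, -0.48 and 0.37. The probe at 0.37 was dim, above the floor on 9 arrays, with BT-549 means of 7.31 in everolimus and 6.95 in DMSO.

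On the small subunit, MRPS34, a mitochondria-specific protein needed for a stable small subunit, read 7.89, 7.04 and 6.80 in everolimus-treated BT-549 and 8.47, 8.33 and 8.15 in DMSO. Replicate 1 stood apart among its everolimus arrays, but the groups did not overlap (-1.07, interval -1.74 to -0.41, adjusted p = 0.0339). MRPS18C, one of 3 human paralogs of bacterial S18, read 9.74, 10.31 and 9.54 in everolimus and 10.76, 10.85 and 11.19 in DMSO (-1.07, interval -1.54 to -0.60, adjusted p = 0.00846). MRPS10, of the subunit's head, read 9.51, 9.02 and 9.13 in everolimus and 10.10, 10.15 and 9.99 in DMSO (-0.86, adjusted p = 0.0321). MRPS7, a core protein of the head that contacts the ribosomal RNA, read 9.13, 9.15 and 8.86 in everolimus and 9.71, 9.92 and 9.85 in DMSO. Its arrays were tight within each group and did not overlap between them (-0.78, adjusted p = 0.00195). MRPS28, MRPS6, MRPS23 and MRPS22 were called lower too, by 0.69, 0.54, 0.50 and 0.38 on the log2 scale. MRPS27 (-0.89, adjusted p = 0.183) and MRPS35 (-0.83, adjusted p = 0.0681) were as far below 0 but spread more between arrays, and neither was called.

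The 3 members called higher in BT-549 come from both subunits. MRPL57, a short protein specific to mitochondria, read 9.30, 9.53 and 9.75 in everolimus and 8.86, 8.83 and 8.68 in DMSO, without overlap (log2 fold change 0.74, interval 0.30 to 1.17, adjusted p = 0.0284). Its second probe, above the floor on 4 arrays, gave 0.17. MRPL10, which anchors the stalk that MRPL12 forms, read 9.41, 9.03 and 8.84 in everolimus and 8.31, 8.43 and 8.37 in DMSO. All its everolimus arrays were above DMSO (0.72, interval 0.40 to 1.05, adjusted p = 0.00995). MRPS2, a small subunit protein of bacterial descent, read 9.69, 9.72 and 9.79 in everolimus and 9.13, 9.30 and 9.52 in DMSO, also without overlap (0.42, interval 0.17 to 0.66, adjusted p = 0.0275). The non-coding MRPL20-AS1, annotated as antisense to MRPL20, read 9.79, 9.91 and 10.05 in everolimus and 9.61, 9.32 and 9.22 in DMSO. It was called higher (0.53, adjusted p = 0.0315) while MRPL20 was called lower, and whether its probe reads that transcript alone was not tested. MRPL42P5, a pseudogene, had no DMSO-treated BT-549 array above the floor and was not called (0.07, adjusted p = 0.653).

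**Figure D2:**
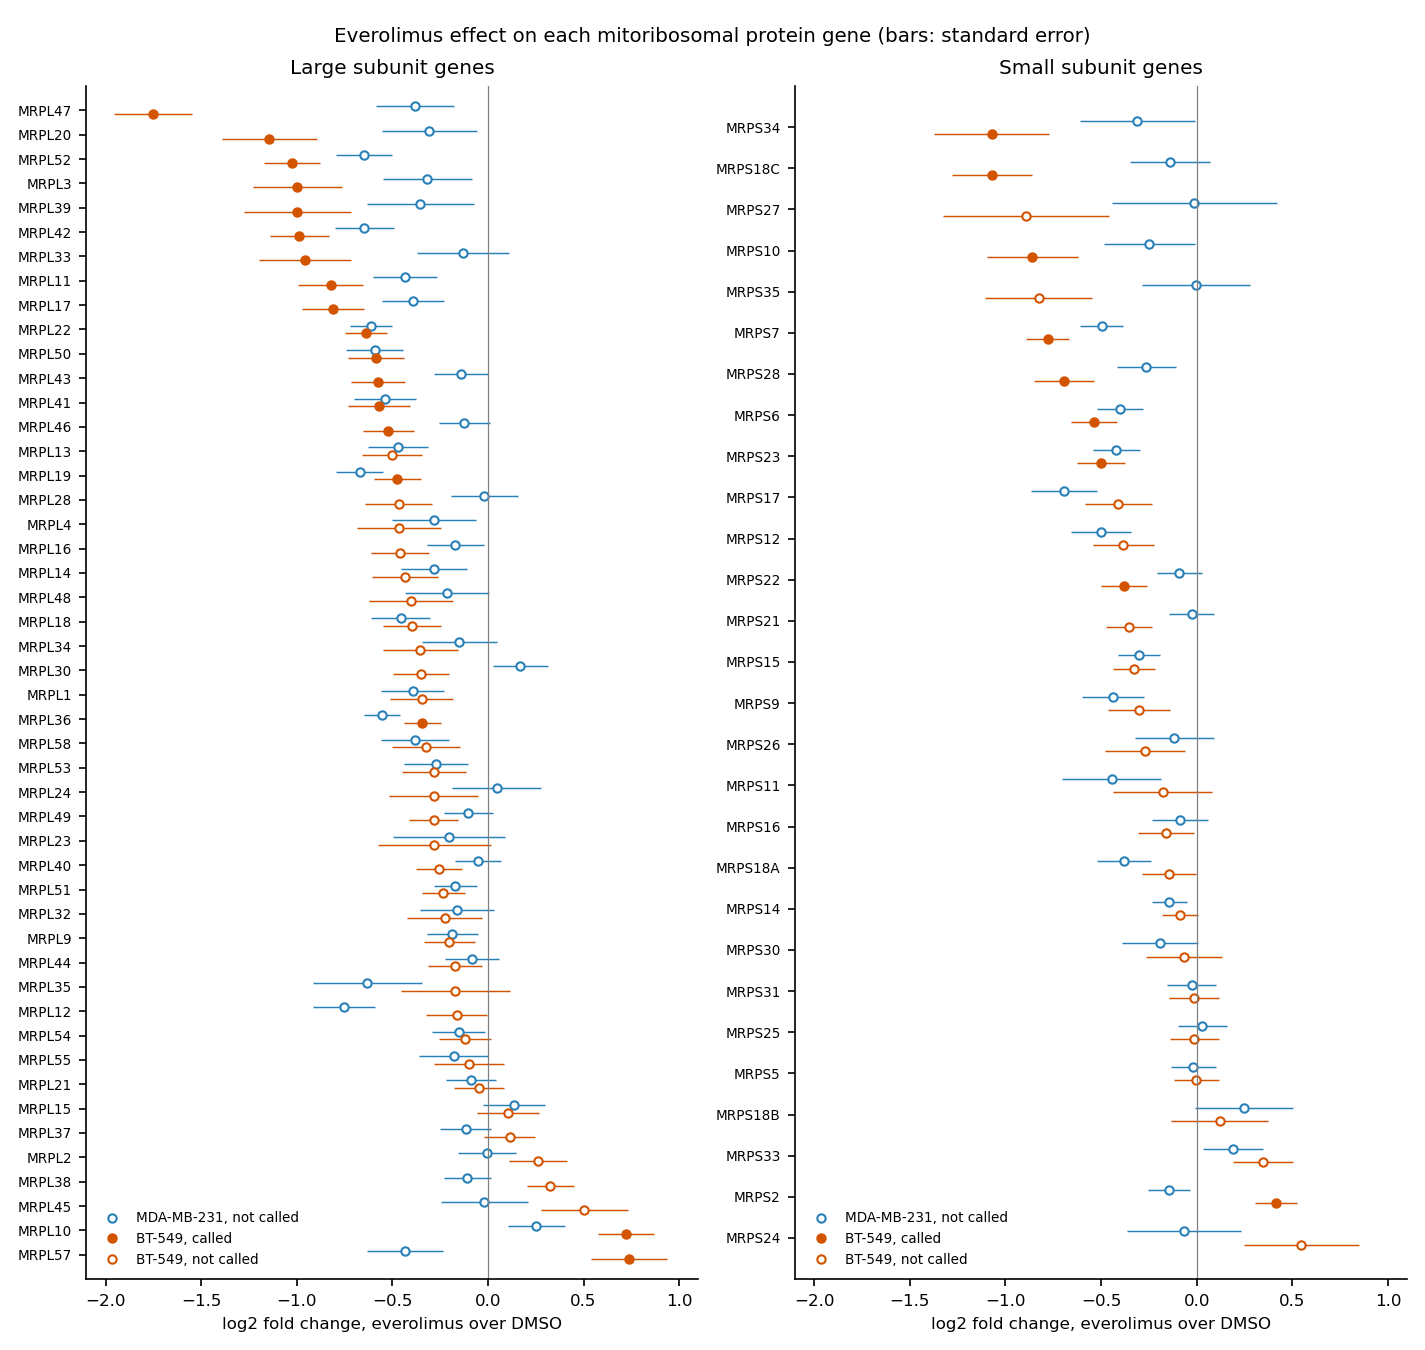
Log2 fold change, everolimus over DMSO (horizontal axis), of each of the 76 members, large subunit left and small subunit right, in the order of the BT-549 effect; bars are standard errors. Filled points are called (24 lower and 3 higher in BT-549, 0 in MDA-MB-231), and 65 of the 76 BT-549 points and 69 of the 76 MDA-MB-231 points lie below 0.

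The BT-549 count moved with single arrays. Leaving out 1 of the 12 arrays gave 9 called members without DMSO replicate 2 (6.76% of all genes called) to 36 without everolimus replicate 1 (28%). It gave 10 without everolimus replicate 3 (7.31%) and 14 without DMSO replicate 3 (12.4%). The calls over all genes moved too, but not in step with those of the members. Without DMSO replicate 3, 14.5% of members and 5.58% of all genes were called lower. Without DMSO replicate 1 these shares were 27.6% and 4.68%. MRPL10, MRPL11, MRPL17, MRPL22, MRPL42, MRPL47, MRPL52, MRPS18C and MRPS7 were called in all 12 of these fits. Without the 4 replicate 1 arrays limma called 45 members lower and 4 higher, and the 27 were all among them. That fit called 16.1% of all genes lower and 22.2% higher. With replicate number as a blocking term limma called 33 members lower and 5 higher, where 12% of all genes were called lower and 15.9% higher.

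In MDA-MB-231 no mitoribosomal protein gene was called, although most lay below 0. Limma called 0 of 76 members, where 0.153% of all genes were called, 0.051% lower. At an unadjusted p under 0.05 there were 22 members, all lower, where 5.81% of all genes (683) were lower at that p. The median log2 fold change of the members was -0.190, with 69 of 76 below 0, against a median of -0.007 over all genes. In 24 members all everolimus arrays lay below all DMSO arrays (9.94% of all genes did so), and in 1, MRPS33, they lay above (8.63%).

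The 6 members with the smallest p in MDA-MB-231 were MRPL36, MRPL22, MRPL19, MRPL12, MRPS7 and MRPL52. MRPL36, a small protein of bacterial descent, read 10.80, 10.57 and 10.69 in everolimus and 11.21, 11.27 and 11.24 in DMSO. MRPL22, which lines the exit tunnel, read 10.21, 10.21 and 10.15 in everolimus and 10.62, 10.98 and 10.81 in DMSO. MRPL19, at the interface between the subunits, read 9.43, 9.49 and 9.26 in everolimus and 10.28, 10.03 and 9.88 in DMSO. In all 3 genes the groups were apart, with log2 differences of -0.55, -0.61 and -0.67 and limma adjusted p = 0.0665 for each. MRPL12, the stalk protein that recruits translation factors, read 9.65, 9.09 and 9.07 in everolimus and 10.08, 10.07 and 9.92 in DMSO (-0.75, interval -1.11 to -0.40, adjusted p = 0.0948). Replicate 1 was the highest of its everolimus arrays, and without that array the difference was -0.94 and was called (adjusted p = 0.027). MRPS7 read 9.45, 9.59 and 9.46 in everolimus and 10.00, 10.11 and 9.88 in DMSO (-0.50, adjusted p = 0.103). MRPL52 read 9.34, 9.01 and 8.87 in everolimus and 9.55, 9.78 and 9.83 in DMSO (-0.65, adjusted p = 0.108), and neither gene's groups overlapped.

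In MDA-MB-231, a fit with replicate number as a blocking term called 2 members lower, MRPL19 (adjusted p = 0.0476) and MRPS17 (-0.69, 0.0497), where 0.34% of all genes were called lower. MRPS17, a core protein of the small subunit, read 10.27, 9.83 and 9.84 in everolimus and 10.84, 10.67 and 10.51 in DMSO. Without the 4 replicate 1 arrays 16 members were called lower and 1, MRPL10, higher, where 3.32% and 3.53% of all genes were. The members' median was then -0.193. Leaving out 1 array gave 0 to 4 calls, 4 without BT-549 everolimus replicate 1 (1.06% of all genes) and 2 without MDA-MB-231 everolimus replicate 1 (0.298%).

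**Figure D3:**
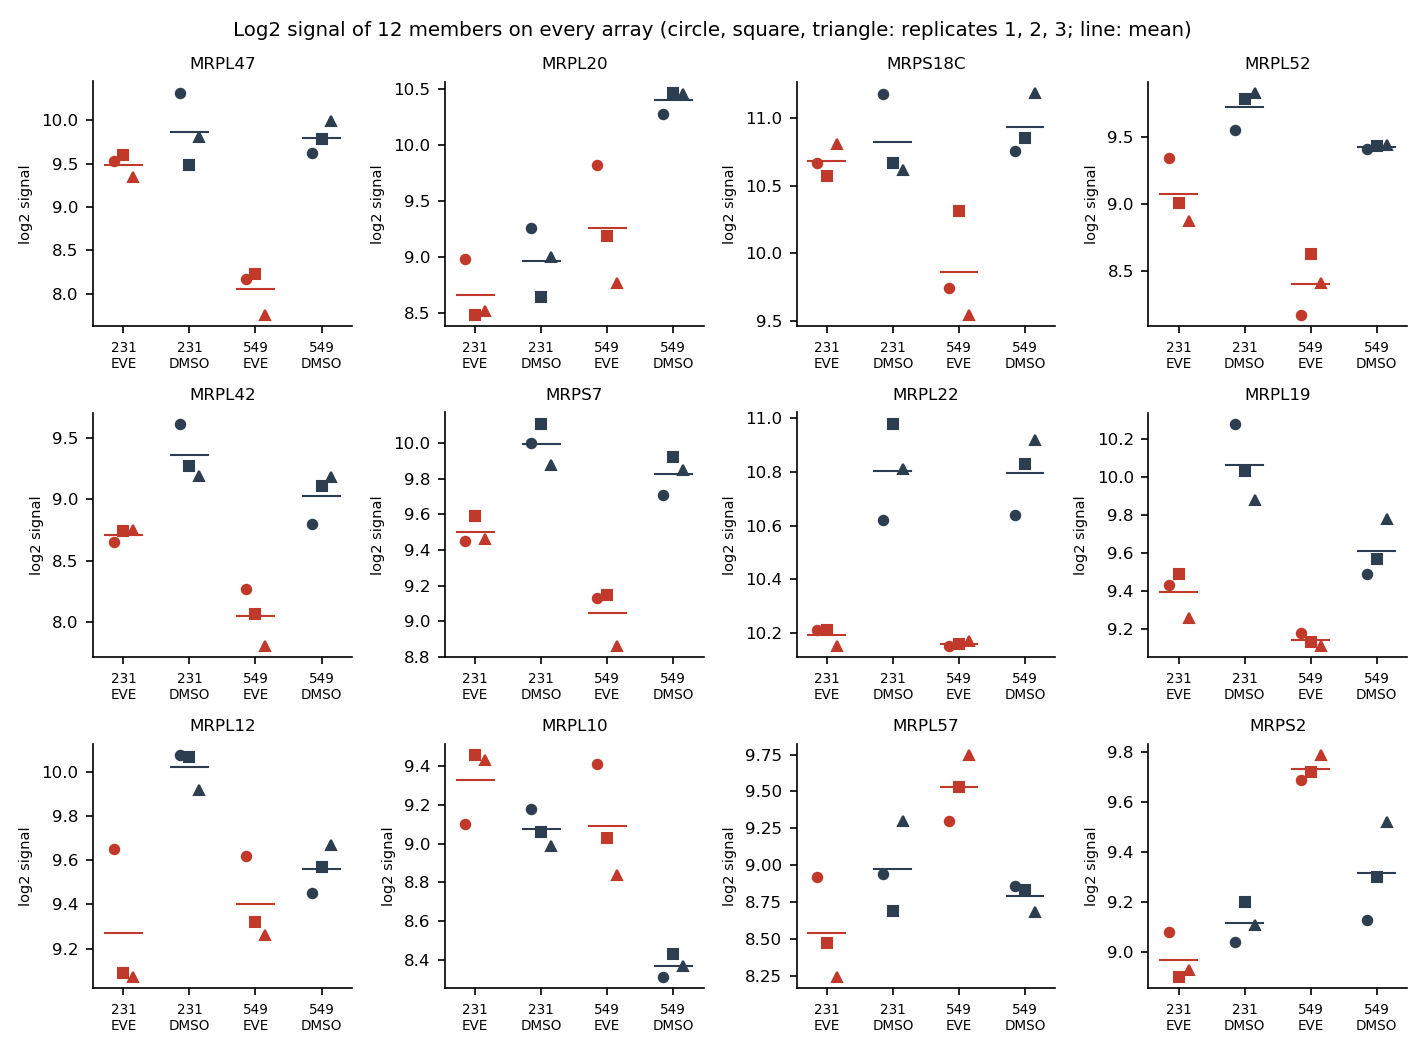
Log2 signal (vertical axis, a scale of its own for each gene) of 12 members on every array, in everolimus (EVE) or DMSO, with the lines MDA-MB-231 and BT-549 named by their numbers; points are replicates 1, 2 and 3 and lines are means. MRPL52, MRPL42, MRPS7, MRPL22 and MRPL19 have everolimus arrays below all DMSO arrays in both lines, while MRPL57 and MRPS2 lie higher in everolimus in BT-549 and not in MDA-MB-231.

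The effect averaged over both lines draws on all 12 arrays. Limma called 26 members lower and 1, MRPL10, higher in the average, where 5.82% of all genes were called lower and 6.66% higher. The median was -0.312 over the members and 0.012 over all genes. The average was -1.07 for MRPL47 (adjusted p = 0.00198), -0.84 for MRPL52 (0.00118), -0.82 for MRPL42 (0.0018), -0.72 for MRPL20 (0.0231) and -0.64 for MRPS7 (0.00117). It was -0.62 for MRPL22 (0.00117), -0.59 for MRPL50 (0.00638) and 0.49 for MRPL10 (0.014). MRPL10 read 9.10, 9.46 and 9.43 in everolimus-treated MDA-MB-231 and 9.18, 9.06 and 8.99 in DMSO, an overlap in that line. Of the 27, 15 were called in each of the 12 fits that left out 1 array, and those fits called 16 to 36 members. The lowest counts were 16 without BT-549 DMSO replicate 2 (6.92% of all genes) and 17 without MDA-MB-231 everolimus replicate 2 (8.1%) or BT-549 everolimus replicate 3 (7.77%), and the highest was that without BT-549 everolimus replicate 1 (22.7%). With the replicate block limma called 36 members lower and 1 higher (11% and 12.2% of all genes), and without the 4 replicate 1 arrays 47 and 2 (14.6% and 18%).

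In 14 members, 9 of the large and 5 of the small subunit, the everolimus arrays lay below the DMSO arrays in both lines, which held for 2.97% of all genes. These were MRPL13, MRPL17, MRPL19, MRPL22, MRPL36, MRPL41, MRPL42, MRPL50, MRPL52, MRPS6, MRPS7, MRPS15, MRPS17 and MRPS23. MRPL22 read 10.15, 10.16 and 10.17 in everolimus-treated BT-549 and 10.64, 10.83 and 10.92 in DMSO, a difference of -0.64 (interval -0.88 to -0.40), beside -0.61 (interval -0.85 to -0.37) in MDA-MB-231. Its second probe gave -1.20 in BT-549 and -0.39 in MDA-MB-231, so how alike the lines are at MRPL22 rests on the probe. MRPL50, a mitochondria-specific protein, differed by -0.59 in each line. Both effects were below 0 in 62 of 76 members (28.2% of all genes). Across the 76 genes the effects in the lines correlated with a Pearson r of 0.412 and a Spearman rho of 0.455, and over all 11764 genes r was 0.368. Without the 4 replicate 1 arrays r was 0.205 over the 76 and 0.304 over all genes. Genes of an array share its RNA and its scaling, so these correlations describe the values and carry no p.

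No member's effect was shown to differ between the lines. Limma called 0 of 76 for the difference, BT-549 minus MDA-MB-231, where 0.638% of all genes were called. At an unadjusted p under 0.05 there were 10 members, 5 each way, against 15.7% of all genes. MRPL47 came nearest. In MDA-MB-231 it read 9.53, 9.60 and 9.34 in everolimus and 10.32, 9.48 and 9.81 in DMSO, which overlap, and its effects of -1.75 in BT-549 and -0.38 in MDA-MB-231 differed by -1.37 (interval -2.01 to -0.74, adjusted p = 0.0673). Its second probe gave -0.48 in BT-549 and -0.38 in MDA-MB-231, so the difference rests on the probe used. With the replicate block MRPL47 was called (adjusted p = 0.0353, where 6.01% of all genes were called), as it was without the 4 replicate 1 arrays (-1.73, 0.00234). MRPL57 lay at 0.74 in BT-549 and -0.43 in MDA-MB-231, where it read 8.92, 8.47 and 8.24 in everolimus and 8.94, 8.69 and 9.30 in DMSO (difference 1.17, adjusted p = 0.0911). MRPS2 lay at 0.42 in BT-549 and -0.15 in MDA-MB-231, where it read 9.08, 8.90 and 8.93 in everolimus and 9.04, 9.20 and 9.11 in DMSO (difference 0.56, adjusted p = 0.122). MRPS18C lay at -1.07 and -0.14 (difference -0.93, interval -1.59 to -0.27, adjusted p = 0.171). In these 3 genes the MDA-MB-231 groups overlapped. Without the 4 replicate 1 arrays 19 members were called for the difference, 5 above and 14 below 0, where 19.9% of all genes were called. Of the fits that left out 1 array, that without BT-549 everolimus replicate 1 called 7 members (10.4% of all genes) and that without MDA-MB-231 DMSO replicate 1 called 1 (0.544%).

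The large and small subunit genes were compared group by group. In BT-549, where 7.23% of all genes were called lower and 9.54% higher, limma called 16 of 48 large subunit genes lower (33.3%) and 2 higher (4.17%). Of 28 small subunit genes it called 8 lower (28.6%) and 1 higher (3.57%). The median log2 fold changes were -0.348 for large and -0.315 for small, a difference of -0.033. In MDA-MB-231 the medians were -0.208 for large and -0.145 for small, with 44 of 48 and 25 of 28 genes below 0, a difference of -0.063. For comparison, the large minus small difference of medians varied between arrays of a group with an SD of 0.056. Both differences kept their sign where 1 setting was changed at a time, at -0.112 to -0.047 in MDA-MB-231 and -0.076 to -0.033 in BT-549 with 1 array left out. MRPS18A and MRPS30 carry small subunit symbols but sit in the large subunit of solved structures. With them moved there, the difference was -0.005 in BT-549 and -0.067 in MDA-MB-231. With the 4 replicate 1 arrays left out as well, it turned to 0.055 in BT-549 and was -0.080 in MDA-MB-231, so the BT-549 difference has no settled sign. On single arrays, large minus small was -0.095, -0.138 and -0.181 in everolimus-treated BT-549 and 0.036, -0.040 and -0.035 in DMSO. In MDA-MB-231 it was 0.160, 0.035 and 0.076 in everolimus and 0.168, 0.042 and 0.154 in DMSO. Large stood lower against small on the BT-549 everolimus arrays than on the BT-549 DMSO arrays, and the MDA-MB-231 groups overlapped. These array values sort the genes by symbol, with MRPS18A and MRPS30 counted as small. They were not computed by structure, so they do not settle the sign of the BT-549 difference.

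Descent of the proteins divided the members in another way. Of the 46 with a bacterial counterpart, limma called 14 lower (30.4%) and 2 higher (4.35%) in BT-549. Their median was -0.352 in BT-549 and -0.273 in MDA-MB-231. Of the 30 mitochondria-specific proteins it called 10 lower (33.3%) and 1 higher (3.33%) in BT-549. Their medians were -0.283 in BT-549 and -0.147 in MDA-MB-231. Over all genes 7.23% were called lower and 9.54% higher in BT-549. The 3 human paralogs of bacterial S18 did not share a value. MRPS18C, in the place of S18 in the small subunit, lay at -1.07 in BT-549. MRPS18A, of the large subunit, lay at -0.14 in BT-549 and -0.38 in MDA-MB-231 (adjusted p = 0.542 and 0.343). MRPS18B, elsewhere in the small subunit, lay at 0.12 in BT-549 and 0.25 in MDA-MB-231 (adjusted p = 0.803 and 0.852), and its sign hung on single arrays. The large subunit protein MRPS30 lay at -0.07 in BT-549 and -0.19 in MDA-MB-231 (adjusted p = 0.865 and 0.851). MRPL12 read 9.62, 9.32 and 9.26 in everolimus-treated BT-549 and 9.45, 9.57 and 9.67 in DMSO (-0.16, adjusted p = 0.537), an overlap. MRPL45, the protein that holds the ribosome at the inner membrane, had probes of opposite sign, 0.50 and -0.76 in BT-549 and -0.02 and 0.47 in MDA-MB-231, and gives no settled direction.

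After 48 h in DMSO alone the lines differed at single members, in shares near those of all genes. Limma called 25 of 76 members, 11 higher (14.5%) and 14 lower (18.4%) in BT-549 than in MDA-MB-231. Of all genes 30.4% were called (14.9% higher, 15.5% lower). The members' median difference was -0.137, and -0.015 without the 4 replicate 1 arrays, against -0.020 over all genes. Large subunit genes gave 6 higher (12.5%) and 12 lower (25%), and small subunit genes 5 higher (17.9%) and 2 lower (7.14%). In 14 members all DMSO arrays of BT-549 lay above those of MDA-MB-231 (22.9% of all genes), and in 22 below (25%).

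MRPS21, the counterpart of bacterial S21, read 12.41, 12.48 and 12.43 in DMSO-treated BT-549 and 9.68, 10.04 and 9.94 in DMSO-treated MDA-MB-231. The lines were far apart, by 5.87-fold (log2 2.55, interval 2.29 to 2.82, limma adjusted p = 1.24e-07), and the second MRPS21 probe gave 1.34. The gap was kept in everolimus, where MRPS21 read 12.30, 12.02 and 11.94 in BT-549 and 9.86, 9.91 and 9.81 in MDA-MB-231. MRPL20 read 10.28, 10.47 and 10.46 in BT-549 and 9.26, 8.64 and 9.0 in MDA-MB-231 (1.44, interval 0.89 to 1.99, adjusted p = 0.00142), with 1.14 on its other probe. MRPL20-AS1 was higher in BT-549 too, at 9.61, 9.32 and 9.22 against 8.02, 7.87 and 8.16 in MDA-MB-231 (1.37, adjusted p = 5.75e-05). Neither gene's lines overlapped. MRPL41, a mitochondria-specific protein, read 11.95, 12.34 and 12.53 in BT-549 and 11.33, 11.04 and 11.29 in MDA-MB-231 (1.05, adjusted p = 0.000657). MRPL37, MRPL15 and MRPS15 followed at 0.82, 0.79 and 0.77.

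The members lowest in BT-549 were MRPL35, MRPL17, MRPS10, MRPL32, MRPL10 and MRPL58. MRPL35, of bacterial descent, read 8.82, 9.37 and 9.72 in DMSO-treated BT-549 and 10.74, 11.17 and 11.07 in DMSO-treated MDA-MB-231. The lines did not overlap (-1.69, interval -2.31 to -1.07, adjusted p = 0.00112), but the other 2 probes of MRPL35 gave -0.59 and -0.50. MRPL17 read 9.84, 10.38 and 10.33 in BT-549 and 11.24, 11.35 and 11.32 in MDA-MB-231 (-1.12, adjusted p = 0.000455). MRPS10 read 10.10, 10.15 and 9.99 in BT-549 and 11.49, 10.61 and 10.86 in MDA-MB-231 (-0.91, adjusted p = 0.0144). MRPL32 lay at -0.75 (adjusted p = 0.0134), MRPL10 at -0.71 (0.00457) and MRPL58, a peptidyl-tRNA hydrolase built into the large subunit that frees stalled ribosomes, at -0.63 (0.0205). MRPL17 and MRPS10 were lower in BT-549 under DMSO and were also called lower by everolimus in that line, whereas MRPL20 and MRPL41 were higher there and called lower by everolimus. Both comparisons use the DMSO-treated BT-549 arrays.

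**Figure D4:**
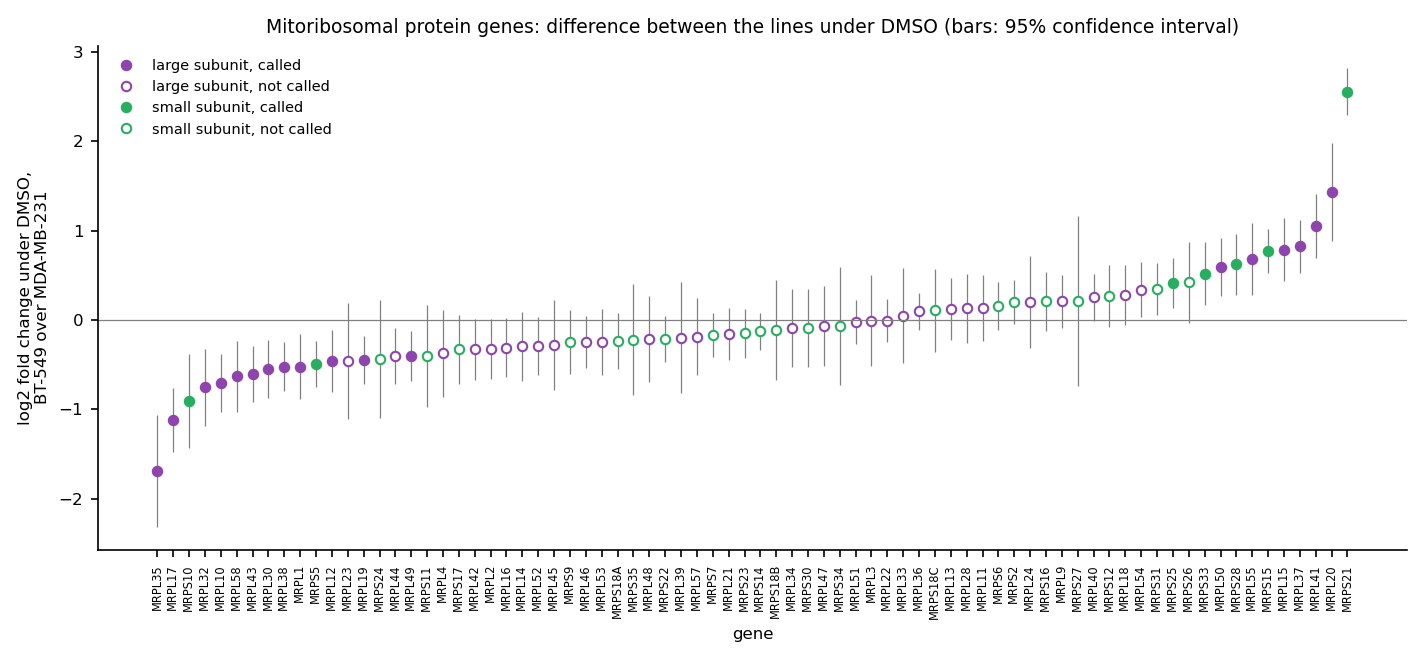
Log2 fold change under DMSO, BT-549 over MDA-MB-231 (vertical axis), of the 76 members in rank order; bars are 95% confidence intervals, colours mark the subunit and filled points are called. MRPS21 stands highest at 2.55 and MRPL35 lowest at -1.69, with 11 filled points above and 14 below 0.

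Genes that work with the mitochondrial ribosome were read from lists chosen from general knowledge. In MDA-MB-231 none of their members was called, where 0.153% of all genes were. In BT-549 7.23% of all genes were called lower and 9.54% higher. Of 4 mitoribosome proteins with other symbols, 1 was called lower in BT-549, CHCHD1, a small subunit protein (log2 fold change -0.96, adjusted p = 0.000445, and -0.31 in MDA-MB-231, 0.239). GADD45GIP1, of the large subunit (-0.23, 0.303), and DAP3, of the small subunit (0.22, 0.53), were not called, and the 4 had a median of -0.120. Of 14 mitochondrial translation factors and messenger RNA handling proteins 2 were called lower (14.3%) and 0 higher, with a median of -0.127. They were SLIRP, which with LRPPRC keeps mitochondrial messenger RNAs stable (-0.88, 0.00215), and the elongation factor TSFM (-0.39, 0.0247), while LRPPRC itself lay on the other side of 0 without being called (0.63, 0.0643). GUF1, named for its p in MDA-MB-231, lay at -0.09 (0.711) in BT-549 and -0.40 (0.277) in MDA-MB-231. Of 19 assembly factors and ribosomal RNA enzymes 3 were called lower (15.8%) and 1 higher (5.26%), with a median of -0.097. MTERF3 (-0.72, 0.0199) and the methyltransferases MRM2 (-0.46, 0.0443) and METTL17 (-0.34, 0.0477) were lower, and NOA1, a GTPase of small subunit assembly, was higher (1.04, 0.0105). Of 67 cytosolic ribosomal protein genes 2 were called lower (2.99%) and 9 higher (13.4%) in BT-549. Their median was -0.013 in BT-549, where that of the 76 mitoribosomal genes was -0.345. In MDA-MB-231 it was 0.043, beside -0.190 for the 76 genes.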

How the data were processed

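Total RNA of 12 samples was isolated with a mirVana kit, amplified with a TotalPrep kit, stained with streptavidin-Cy3 and read on Illumina bead arrays, per the labels' protocols. The deposited log2 values cover 47230 probes. The authors had normalised them between arrays, as read from the equal quantiles of all 12 columns; the base is inferred from the highest value (14.56). The authors' software is not given in the sources used here, nor is any background correction or filter. In a second deposited table, 12 columns carry names that fit none of the samples' labels, and it was not used. No detection p-values come with the mapped values, so a floor replaced a detection filter: 6.77, the background peak of 6.55 plus 3 SDs of 0.0724, passed on at least 3 arrays. Background left in the values compresses folds of dim genes. Symbols came from the platform annotation, and promoters from RefSeq (GRCh38.p14).

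The 4 group means of each gene were estimated by limma (version 3.58.1, under R 4.3.3 with statmod 1.5.0) over all arrays, with 8 residual and 2.89 prior degrees of freedom. All contrasts were 2-sided, with Benjamini-Hochberg adjustment over 11764 genes, and each adjusted p is limma's. The pipeline was tested on simulated data. No set was tested, and no p is given over the members alone. Same-numbered arrays deviated together in MDA-MB-231 (r = 0.735, 0.544 and 0.418) but not in every pair of BT-549 (0.500, 0.079 and 0.411). This pairing is read from the data, not from the labels. Blocked counts of the everolimus effect are given for both lines. Whether probes also read pseudogenes was not tested. MRPS36 was not analysed here.

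The members, lists and naming rule were chosen with earlier results of these data known. Named are up to 12 falls and 8 rises among called members of each everolimus comparison, or the 6 smallest p where fewer than 6 were called, the 4 smallest p of the difference, 6 each way at baseline, the MRPS18 paralogs, MRPS30, MRPL12, members whose probes differ by over 1 log2 unit, and the 3 genes of each other list with the smallest p of an everolimus effect in either line. Further members are named where a count or a probe disagreement concerns them. Alternatives were the replicate block, each line alone, a trended robust prior, equal medians, background subtraction, other floors, probe means and leaving out arrays. Subunit by structure together with leaving out the replicate 1 arrays was added after seeing the data. Figures used Python 3.11.15, matplotlib 3.10.9, pandas 2.3.3 and numpy 2.4.6.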

Additional observations from a re-analysis of the deposited data

How the results depend on the processing

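The count of called members in BT-549 stayed at 18 to 38 under the replicate block, each line alone, a trended robust prior, equal medians, background subtraction, other floors and probe means, against 27. Over these settings 1165 to 3282 of all genes were called, against 1972. Without the 4 replicate 1 arrays 49 members and 4498 of all genes were called. With 1 array left out the lowest and highest counts of members were 9 and 36. For the average of the lines the count of 27 became 49 without the 4 replicate 1 arrays and 16 to 36 with 1 array left out. In MDA-MB-231 the count of 0 became 2 with the replicate block, 2 with no floor, 17 without the 4 replicate 1 arrays and 0 to 4 with 1 array left out. Of all genes 79 were called with that block, 30 with no floor and 806 without those arrays, against 18. For the difference of effects the count of 0 became 1 with the replicate block, 19 without the 4 replicate 1 arrays and 0 to 7 with 1 array left out. At baseline the 25 calls ran from 18 to 35, and those over all genes from 2421 to 5350, against 3576. The 35 and the 5350 both came without the 4 replicate 1 arrays. The 2421 came with the floor passed on all 12 arrays, which leaves fewer genes. The large minus small difference of medians moved by less than the spread between arrays where 1 setting was changed, but in BT-549 it turned to 0.055 with subunits by structure and without the 4 replicate 1 arrays. With medians made equal between arrays the members called in BT-549 were 29 lower and 3 higher, while all genes turned to 877 higher and 1088 lower against 1122 and 850. With the replicate block limma called 3282 of all genes in BT-549 against 1972, 7 of the assembly factors and ribosomal RNA enzymes against 4, and 2 of the regulators against 0 (MYC, adjusted p = 0.00106, and ESRRA, 0.018). In MDA-MB-231 it called 1 cytosolic ribosomal protein gene against 0. In each line it moved the counts of the remaining lists by less than 1.5 times. Signs turned for members near 0: MRPS18C in MDA-MB-231 (0.045 without the 4 replicate 1 arrays, and -0.242 to 0.038 with 1 array left out), MRPS18B in MDA-MB-231 (-0.018 to 0.505) and in BT-549 (-0.025 without those arrays, and -0.020 to 0.235), and MRPS30 in BT-549 (-0.277 to 0.128). Of 734 values of named members, 680 kept direction and side of the threshold, 21 newly passed it, 27 no longer did and 6 turned. The cause of these moves was not tested. The number of arrays, 3 a group, limits the precision, with a median standard error of 0.159 for members in BT-549.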

Other observations

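Of the genes that supply and copy the mitochondrial genetic system a few were called in each direction in BT-549, near the shares of all genes (7.23% lower, 9.54% higher), and 0 were called in MDA-MB-231. Of 16 mitochondrial aminoacyl-tRNA synthetase genes 2 were called lower (12.5%) and 2 higher (12.5%) in BT-549, with a median log2 fold change of -0.078. The tyrosyl enzyme YARS2 (-0.72, limma adjusted p = 0.00489) and the leucyl enzyme LARS2 (-0.43, 0.0173) were lower, and the prolyl enzyme PARS2 (0.51, 0.0105) and the valyl enzyme VARS2 (0.50, 0.0254) were higher. Of 9 genes of mitochondrial transcription and DNA copying, SSBP1, the single-strand binding protein of mitochondrial DNA, was lower (-0.61, 0.0206) and POLRMT, the mitochondrial RNA polymerase, higher (0.66, 0.0417). The helicase gene TWNK lay at 0.42 (0.124). In MDA-MB-231 SSBP1 lay at -0.45 (0.285) and POLRMT at 0.26 (0.748). At an unadjusted p under 0.05 the synthetases and the transcription and copying genes had 3 and 1 members in MDA-MB-231. Over all 11764 genes 1246 passed that p there.

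Of 7 regulators of nuclear genes for mitochondria 0 were called in BT-549 (3 at an unadjusted p under 0.05) and 0 in MDA-MB-231 (1 at that p). Over all 11764 genes 3720 passed that p in BT-549 and 1246 in MDA-MB-231. The values in BT-549 were 0.87 for MYC (limma adjusted p = 0.0515), 0.95 for ESRRA (0.0886) and -0.11 for YY1 (0.615). In MDA-MB-231 they were 0.55 for MYC (0.53), 0.15 for ESRRA (0.959) and -0.31 for YY1 (0.404). YY1 was the regulator with an unadjusted p under 0.05 in MDA-MB-231. NRF1 and PPARGC1B were listed but were not among the genes tested. MYC and ESRRA were called in BT-549 with the replicate block (adjusted p = 0.00106 and 0.018).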
